A study of Taeniopygia guttata with 39 samples.

Results

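CRHBP, NPY1R, GALR1 and RAMP3 are 4 genes of neuropeptide signalling whose transcripts were followed in HVC, a premotor nucleus of the songbird forebrain, through 7 treatment groups of female canaries. Each gene was found as the row whose RefSeq accession is a transcript of the zebra finch gene, and each of the 4 had exactly 1 such row among the 26061 rows of the value table, of which 2244 could be given a zebra finch symbol. The genes were picked with earlier results of the same arrays known: CRHBP for its 7-day and 14-day levels against control, NPY1R for its 1-hour level against control, GALR1 for its 7-day level against control and RAMP3 for its fall from 3 h to 8 h. Those values are therefore given as a description, and a p-value is printed only for pairs of groups that contain none of the groups a gene was picked from.

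The birds were adult females on short days (9 h light, 15 h dark), labelled as non-breeding, each carrying a 7-mm Silastic tube under the skin. The tube was empty in 5 control birds and held testosterone for 1 h (6 birds), 3 h (5 birds), 8 h (5 birds), 3 d (6 birds), 7 d (6 birds) or 14 d (6 birds). The 7-day and 14-day birds are labelled as singing and the birds of the other groups as not singing, so song and long treatment cannot be told apart. The labels give the zebra finch as organism and the design text gives canaries. Each of the 39 arrays held the HVC RNA of 1 bird labelled as a biological replicate, and their number limits the precision.

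Neuropeptides act mostly through G protein-coupled receptors, and binding proteins and accessory proteins set how much peptide reaches a receptor and which peptide it recognises. In mammals, CRHBP is a secreted protein that binds corticotropin-releasing hormone and urocortin and keeps them from their receptors. NPY1R and GALR1 are receptors for neuropeptide Y and galanin that couple to inhibitory G proteins, and RAMP3 is a single-pass membrane protein that joins the calcitonin receptor-like receptor CALCRL to form an adrenomedullin receptor, or the calcitonin receptor to form an amylin receptor. HVC drives song output.

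The bird numbers in the titles fall in 3 separate ranges. The 1-hour, 3-hour, 7-day and 14-day groups share the first, the 8-hour and 3-day groups the second, and controls alone hold the third. In every comparison with control the treatment and the range of bird numbers therefore cannot be told apart. The same holds where the 8-hour or 3-day group is compared with the 1-hour, 3-hour, 7-day or 14-day group. Array medians ran from 7.49 to 7.91 on the log2 scale, with group means between 7.57 at 3 d and 7.82 at 14 d. The array least like the rest was that of 3-hour replicate 2 (median correlation 0.886), and calls of the 4 genes that rest on it are given with and without it. Of the marker lists, 5 of 11 neuron markers were measured, and no gene of the lists for microglia, oligodendrocyte precursors or blood was. CRHBP and GALR1 lay above the array median on all 39 arrays. NPY1R lay below it on all 39 and RAMP3 on 35, and each of these 2 was in the dimmest 25% of rows on 22 arrays but never in the dimmest 5%.

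**Figure D1:**
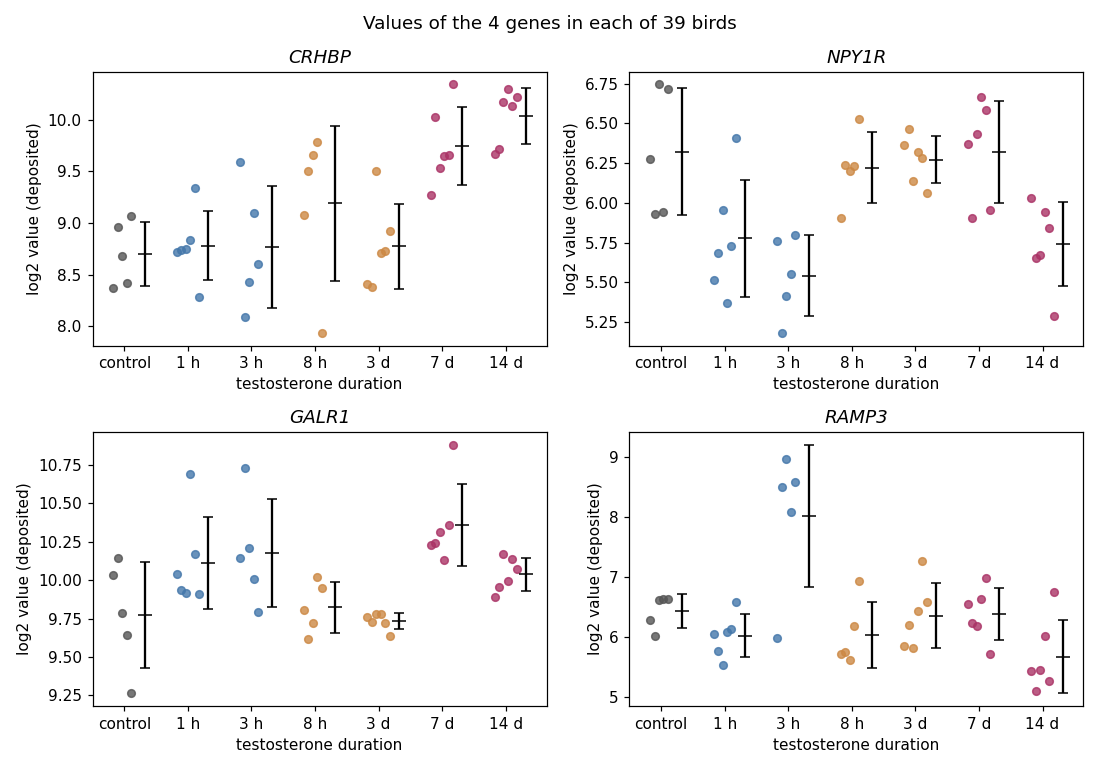
Deposited log2 value (vertical axis) of each gene in each of the 39 birds (points) by treatment group (horizontal axis), with the group mean and SD beside the points. CRHBP was at 9.28 or more in every 7-day and 14-day bird and at 9.07 or less in every control bird, and RAMP3 was at 8.09 or more in 4 of 5 birds at 3 h and at 7.27 or less in every bird of the other groups.

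CRHBP was highest in both groups labelled as singing. Control birds had log2 values of 8.38, 8.96, 8.68, 8.42 and 9.07, with a mean of 8.70 ± 0.31 (SD, n = 5). The 7-day birds ran from 9.28 to 10.34 with a median of 9.65 and a mean of 9.75 ± 0.38 (n = 6), and the 14-day birds from 9.66 to 10.30 with a median of 10.15 and a mean of 10.04 ± 0.27 (n = 6). Neither group overlapped with controls, as was so for 9.23% of all rows at 7 d and 35.2% at 14 d. The difference from control, which is what the gene was picked for, was 1.05 ± 0.26 (SE) at 7 d and 1.34 ± 0.26 at 14 d, or 2.07-fold and 2.52-fold. Some markers of cell types moved at the same durations. Of the 5 measured neuron markers, the neurofilament gene NEFM was higher than control by 0.86 at 7 d (adjusted p = 0.0174 by limma) and by 0.83 at 14 d (0.00336), and its birds at both durations were all above the control birds. GAP43 was lower at both durations and SYT4 and ELAVL4 at 14 d, and the mean of the 5 markers was 10.46 to 10.72 in controls, 10.50 to 10.63 at 7 d and 10.46 to 10.61 at 14 d. Of the 3 measured endothelial markers, EMCN was 0.58 above control at 7 d, where it did not pass (adjusted p = 0.0838 by limma), and at 14 d, where it did (0.0258). TM4SF18 was higher by 0.95 at 7 d, where it passed (adjusted p = 0.0197 by limma), and by 0.57 at 14 d (0.0601). FLT1 differed by 0.11 and 0.03 and passed at neither duration. The part of these cells in the level of CRHBP was not tested. From 7 d to 14 d the mean of CRHBP differed by 0.29, with a 95% interval of -0.21 to 0.79, and the ranges overlapped.

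After short treatment CRHBP overlapped with control birds. Means were 8.78 ± 0.33 at 1 h (n = 6), 8.76 ± 0.59 at 3 h (n = 5) and 8.78 ± 0.41 at 3 d (n = 6), against 8.70 in controls. The 1-hour birds ran from 8.29 to 9.34 with a median of 8.75, the 3-day birds from 8.38 to 9.50 with a median of 8.72, and the 3-hour birds stood at 9.60, 8.09, 8.43, 9.10 and 8.61. All of these groups overlapped with controls, and every 14-day bird was above every bird of the 1-hour, 3-hour and 3-day groups, while the 7-day birds overlapped with each of these 3 groups. The share of rows whose 14-day values do not overlap was 2.38% against 1 h, 5.18% against 3 h and 31.8% against 3 d. Within the range of bird numbers that 4 groups share, the 7-day and 14-day means averaged 9.89 and the 1-hour and 3-hour means 8.77, a difference of 1.12 that involves no control bird, with ranges of 9.28 to 10.34 and 8.09 to 9.60 that overlap. This difference and the lack of overlap at 14 d use the 7-day and 14-day levels for which CRHBP was picked, so both are a description only.

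At 8 h CRHBP split the birds. Values of 9.08, 9.50, 9.66 and 9.78 in replicates 1 to 4 were above every control bird, while replicate 5 stood at 7.93, below every control bird and the lowest value of the gene on the 39 arrays. The group mean was 9.19 ± 0.75 (SD, n = 5). Among the 6 pairs of the 1-hour, 3-hour, 8-hour and 3-day groups, which the choice of the gene did not use, none passed in the limma fit (adjusted p of 0.216 to 0.995), and none had an unadjusted p under 0.05. In these pairs 0.414% (8 h against 3 d) to 35% (3 h against 3 d) of all rows passed. Without replicate 5 the 8-hour mean was higher than at 1 h by 0.73 (adjusted p = 0.0312) and than at 3 h by 0.74 (adjusted p = 0.0265), both past the threshold of an adjusted p under 0.05 in the limma fit. Both pairs cross ranges of bird numbers. Passing was common in them, since with all arrays 23.7% of rows passed between 1 h and 8 h and 31.9% between 3 h and 8 h. Replicate 5 is also the only 8-hour bird with a letter (L) after its number in the title. In a fit that also held the letter, the 8-hour difference from control went from 0.49 to 0.01. Birds without a letter occur only at 8 h and 3 d. This fit therefore separates the letter from the 8-hour group only through replicate 5 and the 3-day birds, and it cannot decide between them.

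The order of the group means of CRHBP was control, 3 h, 3 d, 1 h, 8 h, 7 d and 14 d, and each neighbour in that order overlapped with the next. Between the 3-day and the 7-day birds the difference was 0.97 ± 0.25 (SE), a description that uses the picked 7-day level. Of its receptors, CRHR2, which binds urocortins with high affinity in mammals, was the one measured. CRHR2 stood at 6.78 ± 0.15 (SD, n = 5) in controls, 6.72 ± 0.22 at 7 d and 6.73 ± 0.21 at 14 d (n = 6 each). Its differences from control at the 6 durations ran from -0.31 at 3 d to -0.05 at 14 d, and none passed in the limma fit. Every 7-day and 14-day bird was thus above every control bird in the transcript of the binding protein, which was picked for these levels. The 7-day and 14-day means of the receptor transcript lay within 1 SD of the control mean. Because of the choice of CRHBP, this contrast is a description only.

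NPY1R was lower at 1 h, 3 h and 14 d than in the other groups. Control birds stood at 6.28, 5.93, 6.75, 5.94 and 6.72, with a mean of 6.32 ± 0.40 (SD, n = 5). After 1 h the birds ran from 5.37 to 6.41 with a median of 5.70 and a mean of 5.78 ± 0.37 (n = 6). After 3 h they stood at 5.76, 5.18, 5.42, 5.55 and 5.80, with a mean of 5.54 ± 0.25 (n = 5). All 3-hour birds were below all control birds, as 14.1% of rows had groups without overlap there, while the 1-hour birds overlapped with controls. The difference from control was -0.55 ± 0.17 (SE) at 1 h, the value that picked the gene, and -0.78 ± 0.18 at 3 h. Without 3-hour replicate 2, the lowest of the group, it was -0.69 at 3 h.

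NPY1R stood at the control level at 8 h, 3 d and 7 d. The 8-hour birds had values of 5.90, 6.24, 6.20, 6.23 and 6.53 (mean 6.22 ± 0.22, n = 5). The 3-day birds ran from 6.06 to 6.46 around a median of 6.30 (mean 6.27 ± 0.15, n = 6), and the 7-day birds from 5.91 to 6.67 around a median of 6.40 (mean 6.32 ± 0.32, n = 6). Every bird of these groups was above every 3-hour bird, and the share of all rows without overlap with 3 h was 20.6% at 8 h, 12.5% at 3 d and 3.2% at 7 d. After 14 d the birds again ran lower, from 5.29 to 6.03 with a median of 5.76 and a mean of 5.74 ± 0.27 (n = 6).

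Of the 10 pairs of groups that do not involve control or 1-hour birds, 6 passed for NPY1R in the limma fit. The level rose from 3 h to 8 h by 0.68 ± 0.18 (SE; adjusted p = 0.0056), a comparison in which 31.9% of all rows passed. It was higher at 3 d than at 3 h by 0.73 ± 0.17 (adjusted p = 0.00284 by limma; 35% of rows passed) and at 7 d than at 3 h by 0.78 ± 0.17 (adjusted p = 0.00474; 6.49% of rows). Without 3-hour replicate 2 all 3 still passed in the limma fit, with differences of 0.59 (adjusted p = 0.0227), 0.64 (0.016) and 0.69 (0.0221), where 20.1%, 15% and 3.62% of rows passed. The comparison of 3 h with 7 d lies within 1 range of bird numbers, while those with 8 h and 3 d cross ranges. That of 3 h with 7 d missed the threshold when the 2 groups were fitted alone (adjusted p = 0.0631 by limma). The rise from 3 h to 8 h missed it when the fit held the title letter (0.075), which 4 of the 8-hour birds lack.

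The fall at 14 d was of similar size from each of 3 groups, of which only the 7-day group shares the 14-day range of bird numbers. NPY1R was lower at 14 d than at 8 h by 0.48 ± 0.17 (adjusted p = 0.0205 in the limma fit; 49.1% of rows passed), than at 3 d by 0.53 ± 0.16 (adjusted p = 0.00749; 51.9% of rows) and than at 7 d by 0.58 ± 0.16 (adjusted p = 0.0202; 14% of rows). Thus the 2 groups labelled as singing differed from each other in this receptor gene: 4 of 6 birds at 14 d were below every 7-day bird. The fall from 7 d missed the threshold without 7-day replicate 4 (adjusted p = 0.0763 by limma) or 5 (0.0631) or 14-day replicate 2 (0.0527) or 6 (0.0548), and the fall from 8 h without 8-hour replicate 5 (0.0689) or 14-day replicate 6 (0.0638), or when the fit held the title letter (0.055). Between 3 h and 14 d, 0.20 (95% interval -0.15 to 0.55), and among 8 h, 3 d and 7 d no pair passed. From low to high the order of the group means was 3 h, 14 d, 1 h, 8 h, 3 d, 7 d and control, and each neighbour overlapped with the next.

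The level of NPY1R also moved with the overall level of the array. The array median was higher at 1 h (7.71), 3 h (7.72) and 14 d (7.82) than in controls (7.59), at 8 h (7.58) and at 3 d (7.57), and it was 7.69 at 7 d, where NPY1R was not low. Across the 39 arrays, which share groups and ranges of bird numbers, the correlation of the gene with the array median was -0.716, and -0.672 after the group means were taken out. With each array centred on its median the 14-day difference from control went from -0.58 to -0.81, and all 6 pairs still passed. With the array median as a covariate the 14-day fall from 8 h and from 3 d changed sign (0.11 and 0.06), and the difference between 3 h and 7 d alone passed (0.71, adjusted p = 0.000833 by limma). The part of the array level in these differences was not tested further.

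**Figure D2:**
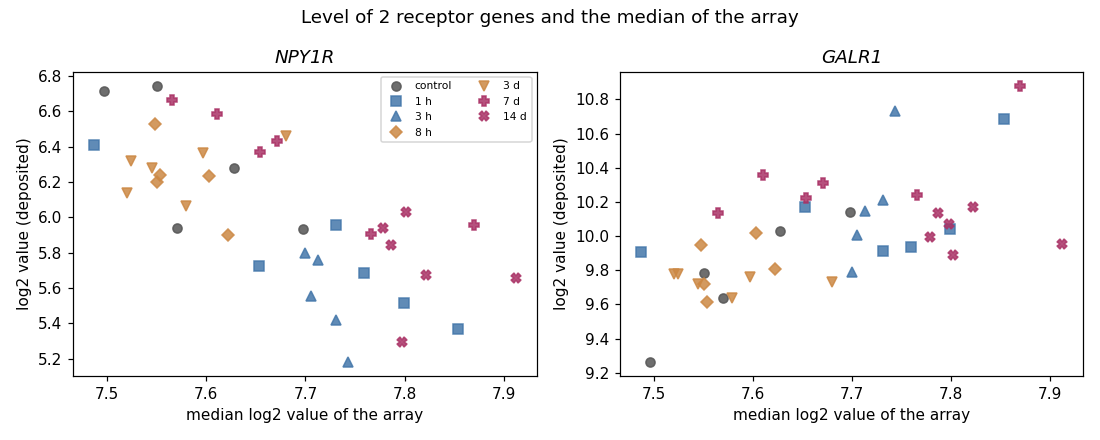
Deposited log2 value of NPY1R (left) and GALR1 (right) on the vertical axis against the median log2 value of the same array on the horizontal axis, 1 symbol per bird and 1 symbol type per group. Inside groups NPY1R was lower (correlation -0.672) and GALR1 higher (0.541) on arrays with a higher median, and the 2 birds with the highest medians at 7 d had the lowest NPY1R values of that group.

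The 3 genes with a symbol whose values were most like those of NPY1R over the 39 median-centred arrays were CAMK2A, which encodes a kinase subunit abundant in excitatory neurons (Pearson r = 0.871; 0.844 within groups), SURF4 (0.847; 0.794) and the cannabinoid receptor gene CNR1 (0.843; 0.730). Centring takes the same array median from both genes of a pair. On the deposited values the 3 correlations over the arrays were lower, at 0.796, 0.763 and 0.767. CAMK2A was the one measured gene of 7 excitatory neuron markers. It averaged 12.91 ± 0.16 (SD, n = 5) in controls, 12.72 at 1 h, 12.72 at 3 h and 12.59 ± 0.10 at 14 d (n = 6), where it was lower than in controls by 0.32 (adjusted p = 0.0108 by limma). In dissected tissue, fewer cells of a type and less RNA per cell cannot be told apart. The part of CAMK2A-expressing cells in the level of NPY1R was not tested. The other neuropeptide Y receptor measured, NPY5R, differed from control by -0.39 at 7 d, -0.37 at 14 d and 0.18 at 3 d, and passed at no duration in the limma fit. At 7 d NPY5R thus ran below control on average while NPY1R was at the control level, a contrast between the 2 receptor genes that was not tested. NPY5R was also dimmer. Its group means ran from 4.18 at 7 d to 4.75 at 3 d, all under the lowest group mean of NPY1R (5.54 at 3 h).

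GALR1 was highest at 7 d. Control birds stood at 10.03, 10.14, 9.79, 9.64 and 9.26, with a mean of 9.77 ± 0.35 (SD, n = 5). The 7-day birds ran from 10.13 to 10.88 with a median of 10.28 and a mean of 10.36 ± 0.27 (n = 6), the value for which the gene was picked. They overlapped with controls at the edge only, since the lowest of them, 10.13, lay under the highest control bird. The difference from control was 0.59 ± 0.15 (SE) at 7 d, and 0.48 without 7-day replicate 6, the highest bird. The mean of the 4 measured of 9 astrocyte markers (AQP4, SLC1A3, GJA1 and FABP7) was also highest at 7 d, at 6.73 to 7.01 against 6.57 to 6.61 in controls, without overlap. Of these genes the water channel gene AQP4 alone passed at 7 d (0.39, adjusted p = 0.048 by limma). SLC1A3 differed by 0.62 (0.0951), FABP7, which averaged 2.60 over the arrays, by 0.06, and GJA1 by -0.07. The part of astrocytes in the level of GALR1 was not tested.

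The 1-hour and 3-hour groups came next. The 1-hour birds ran from 9.91 to 10.69 (median 9.99, mean 10.11 ± 0.30, n = 6), and the 3-hour birds stood at 10.15, 10.73, 10.21, 10.01 and 9.79 (mean 10.18 ± 0.35, n = 5). At 14 d the birds ran from 9.89 to 10.17 (median 10.03, mean 10.04 ± 0.11, n = 6). Differences from control were 0.34 ± 0.15 (SE) at 1 h, 0.40 ± 0.16 at 3 h and 0.26 ± 0.15 at 14 d, where the median of all rows differed by 0.12, 0.16 and 0.22. The 3-hour difference was 0.27 without 3-hour replicate 2. All 3 groups overlapped with controls, and the 14-day difference was close to that of the median row.

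At 8 h and 3 d GALR1 was at the control level. The 8-hour birds stood at 9.81, 9.62, 9.72, 10.02 and 9.95 (mean 9.82 ± 0.16, n = 5), and the 3-day birds lay closely together, from 9.64 to 9.78 around a median of 9.75 (mean 9.73 ± 0.05, n = 6). Every bird of the 1-hour, 3-hour, 7-day and 14-day groups was above every 3-day bird. The share of all rows without overlap with 3 d was 2.99% at 1 h, 12.5% at 3 h, 6.97% at 7 d and 31.8% at 14 d. With each array centred on its median, the 3-day birds ran from 2.05 to 2.26 above it. The 1-hour, 3-hour and 14-day birds then overlapped with them (lowest 2.18, 2.09 and 2.04), and only the 7-day birds (lowest 2.47) stayed apart. Of the 10 pairs without control or 7-day birds, 1 passed in the limma fit. This was the difference between 3 h and 3 d of -0.44 ± 0.15 (SE, adjusted p = 0.0222 by limma). The comparison crosses ranges of bird numbers, and 35% of rows passed in it. It missed the threshold without 3-hour replicate 2, the highest of its group (-0.30, adjusted p = 0.137 by limma), with each array centred on its median (-0.30, 0.0797), when fitted with these 2 groups alone (0.0618) and when the fit held the title letter (0.112). The difference between 1 h and 3 d (-0.37, adjusted p = 0.0582 by limma) and that between 3 d and 14 d (0.30, 0.0718) did not pass, although the latter did when these groups were fitted alone (0.00339).

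The group means of GALR1 ran, from low to high, in the order 3 d, control, 8 h, 14 d, 1 h, 3 h and 7 d, and each neighbour overlapped with the next. GALR1 was higher on arrays with a higher median, with a correlation of 0.597 over the 39 arrays and 0.541 within groups, opposite in sign to NPY1R. Centring reduced the spread of its group means but left the 7-day birds highest, at 2.67 ± 0.19 above the array median (SD, n = 6) against 2.18 ± 0.28 (n = 5) in controls and 2.22 ± 0.13 (n = 6) at 14 d. After centring, the lowest 7-day bird (2.47) was above the highest control bird (2.44). This describes the level for which the gene was picked, and the share of all rows without overlap after centring is not given here. The other galanin receptor measured, GALR3, was dimmer, with a control mean of 5.06. It was within 0.03 log2 of control at 1 h, 3 h and 8 h, and its difference was -0.06 at 7 d. At 14 d GALR3 was higher by 0.34 (adjusted p = 0.0367 by limma), where 39.1% of all rows were higher, and by 0.11 after centring (adjusted p = 0.487). The genes most like GALR1 by the same measure were SAMD7 (Pearson r = 0.822; 0.776 within groups), the translation factor gene EIF4E2 (0.815; 0.701) and the mitochondrial RNA methyltransferase gene MRM2 (0.792; 0.716).

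RAMP3 stood out at 3 h in 4 of 5 birds. The 3-hour birds had values of 5.98, 8.51, 8.97, 8.09 and 8.59, with a mean of 8.03 ± 1.18 (SD, n = 5). Control birds stood at 6.29, 6.02, 6.62, 6.63 and 6.65 (mean 6.44 ± 0.28, n = 5), the 1-hour birds ran from 5.54 to 6.58 (median 6.07, mean 6.03 ± 0.35, n = 6), and the 8-hour birds stood at 5.71, 5.75, 5.62, 6.20 and 6.95 (mean 6.05 ± 0.55, n = 5). Replicate 1 of the 3-hour group was below every control bird, and the other 4 birds were above every bird of every other group. As a description, the mean was higher at 3 h than in controls by 1.59 ± 0.36 (SE), or 3.00-fold, than at 1 h by 2.00 ± 0.35, or 4.00-fold, and than at 8 h by 1.98 ± 0.36, the value that picked the gene.

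Because of replicate 1, the 3-hour range overlapped with that of each other group. Without that bird the 3-hour difference from control was 2.10 and without replicate 2, the array that stood apart, 1.47. The mean level of the 3 measured of 12 endothelial markers (FLT1, EMCN and TM4SF18) was 5.92 to 6.29 at 3 h and 5.65 to 5.85 in controls, and it was 6.00 to 6.63 at 7 d and 6.02 to 6.46 at 14 d, where RAMP3 was not high. At 3 h TM4SF18 alone of the 3 passed (1.30, adjusted p = 0.00121 by limma), while EMCN differed from control by 0.03 and FLT1 by -0.14. Replicate 2 had the highest 3-hour value of TM4SF18 (7.68) and the lowest of EMCN (4.82) and FLT1 (5.75), so these differences lean on that array. At 3 h 28.6% of all rows passed, and 9.55% without replicate 2. In this list 3-hour replicate 1, the bird with low RAMP3, had the lowest value of its group (5.92). The part of endothelial cells in the level of RAMP3 was not tested.

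Outside 3 h and 8 h the group means of RAMP3 ran from 5.67 at 14 d to 6.44 in controls. The 3-day birds ran from 5.82 to 7.27 (median 6.32, mean 6.36 ± 0.54, n = 6), the 7-day birds from 5.73 to 6.99 (median 6.39, mean 6.39 ± 0.43, n = 6) and the 14-day birds from 5.11 to 6.75 (median 5.45, mean 5.67 ± 0.61, n = 6). The order of the means was 14 d, 1 h, 8 h, 3 d, 7 d, control and 3 h, each overlapping with the next. The 14-day group had the lowest mean, with 5 of 6 birds at 6.02 or less. Of the 10 pairs of groups without 3-hour or 8-hour birds, none passed in the limma fit, and 3 had an unadjusted p under 0.05, all of them with the 14-day group. In these pairs 0.437% (7 d against 1 h) to 51.9% (14 d against 3 d) of all rows passed. The 14-day level differed from control by -0.77 ± 0.35 (SE; adjusted p = 0.0636; 50% of rows passed), from 3 d by -0.69 ± 0.33 (0.0786) and from 7 d by -0.71 ± 0.33 (0.131).

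Whether the difference of RAMP3 between 14 d and control passed in the limma fit depended on the setting. It passed with each array centred on its median (-0.99, adjusted p = 0.0297) and without 14-day replicate 6, the highest bird (-0.98, 0.0203). It also passed without 3-hour replicate 1, whose low value widens the spread shared by all groups (-0.77, 0.0175). With single arrays left out its adjusted p by limma ran from 0.0175 to 0.142. It did not pass with the title letter, with the array median as a covariate, with trend and robust eBayes or without the dimmest 25% of rows. In the main fit, where it did not pass either, 50% of all rows did. CALCRL, the receptor that RAMP3 joins, was higher than control by 0.19 at 3 h, 0.41 at 3 d and 0.09 at 14 d, and passed at no duration in the limma fit (adjusted p of 0.0877 at 3 d). Its control birds averaged 4.29 ± 0.24 (SD, n = 5) and its 3-hour birds 4.48 ± 0.06 (n = 5), both dimmer than the lowest group mean of RAMP3 (5.67 at 14 d). The genes most like RAMP3 were PEX5L (Pearson r = 0.825; 0.716 within groups), the chemokine gene CXCL14 (0.756; 0.568) and DIRAS2 (0.747; 0.556).

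**Figure D3:**
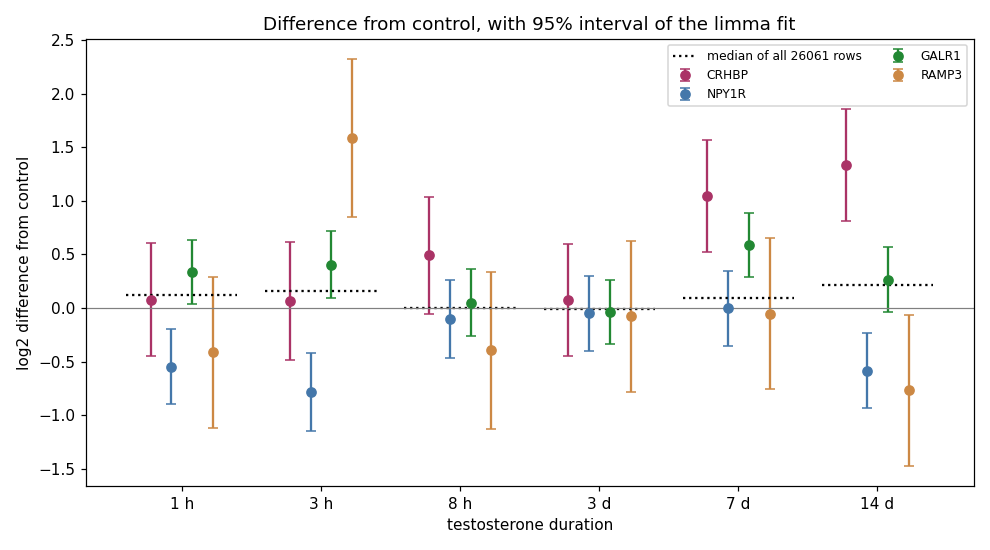
Log2 difference from control (vertical axis) of the 4 genes at each of 6 durations (horizontal axis), with the 95% interval of the limma fit, and the median difference of all 26061 rows as a dotted line. Every point of CRHBP, NPY1R and GALR1 uses the control birds, against which these genes were picked, and RAMP3 was picked from 3 h and 8 h. The intervals of all points of the first 3 genes, and of RAMP3 at 3 h and 8 h, therefore describe the spread and test nothing. Among them are CRHBP at 7 d (1.05) and 14 d (1.34), NPY1R at 1 h (-0.55), GALR1 at 7 d (0.59) and RAMP3 at 3 h (1.59).

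The 4 genes followed different time courses, which was in large part fixed by picking them for levels at different durations. RAMP3 was high at 3 h, NPY1R low at 1 h and 3 h and again at 14 d, GALR1 highest at 7 d and CRHBP high at 7 d and 14 d. The deviations of single birds from their group means were correlated at -0.522 between NPY1R and GALR1 and at -0.467 between CRHBP and RAMP3 over the 39 arrays, and at -0.348 and -0.377 after each array was centred. CRHBP and GALR1, both picked for their 7-day level, had a correlation of -0.01 within groups. These values describe arrays that share the same groups and carry no test.

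Among the genes most like CRHBP over the 39 centred arrays were SNTG2 (Pearson r = 0.631; 0.404 within groups) and the coagulation factor gene F13A1 (0.599; 0.305).

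Of 140 other neuropeptides and peptide receptors listed, 26 were measured, and at 14 d 14 of them were higher in the limma fit and none was lower, with a median difference from control of 0.33 against 0.22 for all rows. At that duration 39.1% of all rows were higher and 10.9% lower. After centring 10 of the 26 passed at 14 d, a smaller share than that of all rows in the same setting. With the array median as a covariate none of the 26 passed. The largest differences at 14 d were those of AGT, the precursor of angiotensin (0.70 ± 0.17 SE), TRHR, the receptor for thyrotropin-releasing hormone (0.68 ± 0.16), UTS2, which encodes urotensin (0.63 ± 0.20, and in the dimmest 5% of rows on 23 arrays, where the size of a difference is uncertain), and GRPR, the receptor for gastrin-releasing peptide (0.62 ± 0.12). UTS2 did not pass after centring (adjusted p = 0.106), and the other 3 did. Of the 14, GCG was also in the dimmest 5% of rows on all 39 arrays and HCRTR2 on 5.

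Before 14 d hardly any of these genes passed. At 3 h, where 28.6% of all rows passed, AGT alone was called, higher by 0.84 ± 0.18 (adjusted p = 0.00181 by limma, or 0.63 without 3-hour replicate 2), although 7 of the 26 had an unadjusted p under 0.05. When these 2 groups were fitted alone it did not pass (0.0665). The count of 1 at 3 h became 1 to 6 with single arrays left out, 6 of them without 3-hour replicate 1. Without that array more of all rows passed than in the main fit, and their share was above that of the 26 genes. Without 3-hour replicate 2 there were 2 calls at 3 h, and the share of all rows that passed fell from 28.6% to 9.55%. None was called in the limma fit at 1 h, 8 h, 3 d or 7 d, where 8.44%, 7.21%, 1.05% and 7.87% of rows passed and 3, 2, 5 and 5 of the 26 had an unadjusted p under 0.05. Without 1-hour replicate 6 there were 4 calls at 1 h, where 7531 of all rows passed. Without 3-hour replicate 2 there were 2 at 3 d, where 714 rows passed. With array weights there were 10, 2, 3 and 2 calls at 1 h, 8 h, 3 d and 7 d. With these weights 10941, 5202, 1267 and 6902 rows passed, against 2199, 1878, 273 and 2052 in the main fit. At 7 d, where the levels of CRHBP and GALR1 were high, the median difference of the 26 genes was 0.09 against 0.10 for all rows.

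Of 19 genes of peptide processing and secretion, 2 were measured. CHGA, chromogranin A of the dense-core vesicles that store peptides, stood at 9.81 ± 0.24 (SD, n = 5) in controls and was lower by 0.63 at 1 h (adjusted p = 0.022 by limma; 2.65% of rows were lower) and by 0.72 at 7 d (9.09 ± 0.09, n = 6; adjusted p = 0.00719; 3.23% of rows were lower). It did not pass at the other 4 durations. SCG3, secretogranin III of the same vesicles, was higher at 14 d by 0.46 (adjusted p = 0.00371 by limma). There 39.1% of rows were higher and the median of all rows differed by 0.22. The 2 genes therefore passed in opposite directions at different durations, beside unlike shares of all rows.

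**Figure D4:**
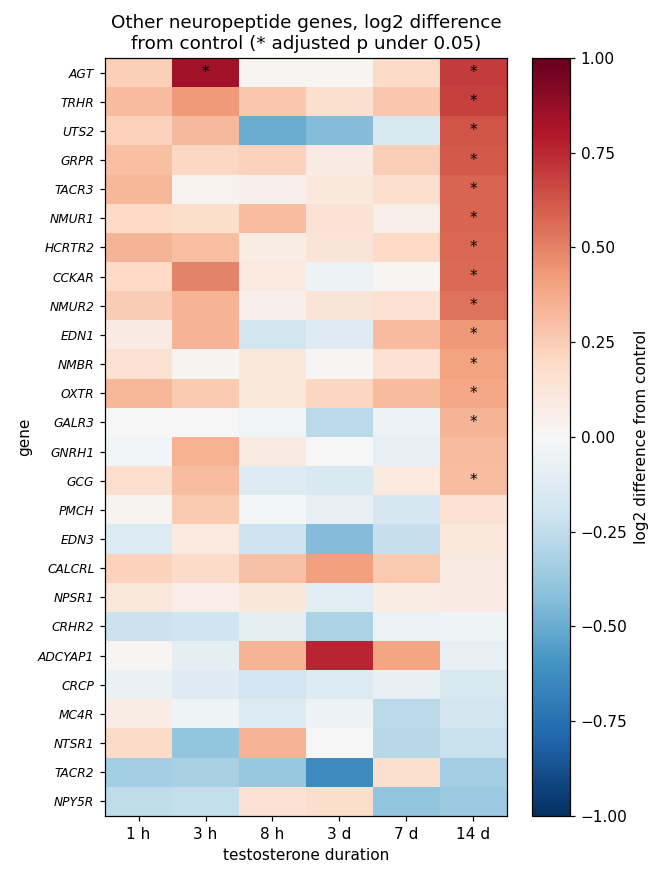
Log2 difference from control, as colour from -1 (blue) to 1 (red), of 26 other neuropeptide and peptide receptor genes (rows, ordered by the 14-day difference) at 6 durations (columns), with a star where the adjusted p of the limma fit was under 0.05. All but 1 of the 15 stars lie in the 14-day column, and the other one marks AGT at 3 h.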

How the data were processed

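The deposited table holds the authors' log2 values, whose scale was inferred from their range. The submitters' processing notes name Affymetrix Expression Console and affy, and the steps of summarising and normalising are not given in the sources used here. RNA was amplified with the Ambion WT Expression Kit, per the labels' protocols. Rows were named by RefSeq transcript accession, version removed, using the annotation of zebra finch build bTaeGut7.mat (2471 of 26061 rows matched a gene, 2244 with a symbol other than a LOC number; the brightest row was used for genes with more than 1).

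Group means were fitted to all 39 arrays with limma 3.58.1 (R 4.3.3), with eBayes and Benjamini-Hochberg adjustment over 26061 rows in each of 21 pairs of groups, two-sided, called at an adjusted p under 0.05. The 6 comparisons with control share its 5 arrays. Named genes are the 4 members, their measured receptors, the 4 largest called changes per duration and direction of the lists, and the 3 genes most correlated with each member; some results under this rule and the marker lists are not reported here. GCG, HCRTR2, TACR3, OXTR and the marker genes given with values were chosen after their values were seen. The members and lists were chosen with earlier results of these data known. Alternatives were quantile normalisation, median centring, leaving out the dimmest 25% of rows, trend and robust eBayes, array weights, fits of 2 groups, a replicate block, the title letter, the array median as a covariate, the mean over a gene's rows, an adjusted p under 0.01 and each array left out. The code was tested on simulated data. Figures used Python 3.11.15, pandas 2.3.3 and matplotlib 3.10.9.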

Additional observations from a re-analysis of the deposited data

Results flagged for a closer look

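Of 28 groups of values (4 genes, 7 groups), 2 held a bird far from the rest by Dixon's criterion, which chance meets in about 1 of 20 groups. Both were in GALR1. Replicate 4 of the 1-hour group stood at 10.69, with the next bird at 10.17, and replicate 6 of the 7-day group at 10.88, with the next bird at 10.36. Without the first, the 1-hour difference from control was 0.22, and without the second the 7-day difference was 0.48.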

How the results depend on the processing

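Counts of pairs called by limma, with the settings that moved them: for NPY1R (6 of 10) the array median as a covariate gave 1; for GALR1 (1 of 10) centring, the title letter, that covariate and an adjusted p under 0.01 gave 0 and array weights 4; for RAMP3 (0 of 10) quantile normalisation, centring, array weights and fits of 2 groups gave 2 and the replicate block 1. For CRHBP (0 of 6) none did. With single arrays left out, the counts were 0 to 2 for CRHBP, 4 to 6 for NPY1R, 1 to 2 for GALR1 and 0 to 2 for RAMP3. The other neuropeptide genes gave 15 calls over 6 durations, 9 without the dimmest rows (where the dim ones are not tested), 34 with array weights, 5 with the covariate and 13 to 22 with single arrays left out. The cause of the other shifts was not tested. Under the covariate the 14-day differences of NPY1R from 8 h (0.11) and 3 d (0.061), of GALR1 from 3 d (-0.10) and of TACR3 (-0.10) and OXTR (-0.015) from control changed sign; none of these passed. NPY1R has no value without the dimmest 25% of rows, which include it, and the mean over rows leaves the 4 genes, with 1 row each, as they are. Counts over all rows depended on the setting: 14 d against control had 13034 calls (184 with the covariate, 15983 with array weights), 3 h against control 7459 (247 for 2 groups alone), 3 h to 8 h 8307 (652 with the title letter), 3 h against 3 d 9122 (2267 with the covariate), 3 h against 7 d 1691 (189 for 2 groups alone, 4653 with array weights), 14 d against 8 h 12796 (1317), against 3 d 13525 (160) and against 7 d 3653 (122), the last 3 with the covariate. With single arrays left out, the count fell to 844 without 7-day replicate 4 and rose to 7547 without 7-day replicate 6 for 14 d against 7 d, was 378 without 1-hour replicate 4 and 7531 without 1-hour replicate 6 for 1 h against control, 4209 without 3-hour replicate 2 for 7 d against control (2052), and 117 without control replicate 1 and 714 without 3-hour replicate 2 for 3 d against control (273). Without 3-hour replicate 2 it was 2490 for 3 h against control, 5230 against 8 h, 3921 against 3 d and 944 against 7 d, and 3282 for 8 h against control (1878). Replicate numbers occur in every group, but birds of the same number did not deviate together (mean correlation 0.0284 over 111 pairs, against -0.00419 over 540 pairs of other numbers), so the block is no pairing; in the block fit NPY1R had 6 calls and GALR1 1, and the other neuropeptide genes 4 at 3 h.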
